A study of Triticum aestivum and Aegilops tauschii and Triticum carthlicum with 18 samples.

Results

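The leaf transcriptome of the durum wheat TTR04 (Triticum turgidum ssp. durum cv. Inbar) was set against that of the goat-grass TQ27 (Aegilops tauschii). TTR04 is a tetraploid with the A and B genomes and TQ27 is a diploid with the D genome, and they are the seed and pollen parent of the synthetic allohexaploid line Allo-AT5. The comparison rests on 4 of the 18 Affymetrix Wheat Genome arrays of the study, 2 of TTR04 and 2 of TQ27, and on 61115 of 61290 probe sets, 175 controls having been left out. Each array stands for 1 pool of 10 plants. RNA came from the second leaf at the three-leaf stage, from plants kept at 22 °C in the 12 h day and at 20 °C in the night, and neither parent had been treated. Other arrays quoted are those of Allo-AT5 in the selfed generations S4 and S5 (amphidiploids of TTR04 and TQ27 made with colchicine), of MPV5 (both parental RNAs mixed, TTR04 to TQ27 as 2 to 1) and of TTH01 (a second tetraploid, T. turgidum ssp. carthlicum).

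Common wheat arose when a tetraploid with the A and B genomes joined with Ae. tauschii, so that most of its genes exist as homoeologs, the corresponding copies on the A, B and D chromosomes. TTR04 carries only A and B copies and TQ27 only D copies. The array was built on sequences of common wheat, which can come from any of the 3 genomes, and a probe set whose probes match a copy imperfectly reads that copy low. A difference in level between the species can therefore be a difference in the amount of transcript or in the fit of the probes, and these cannot be told apart here. Nor can fewer cells of a type be told from less RNA per cell in whole leaves. Because the arrays were scaled to a common distribution, all levels are relative to the rest of the leaf RNA and not per cell or per genome copy. Levels are log2 values from robust multichip averaging (RMA), and both arrays of a species had to reach a detection level of about 4.5 for a probe set to be taken as expressed there. A probe set was called when it was expressed in TTR04 or TQ27 and the adjusted p of limma was under 0.05.

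TTR04 and TQ27 leaves expressed 23282 and 23597 probe sets, and 27898 were expressed in at least 1 of the species. Of these, 9786 were called (35.1%), with 4720 higher in TTR04 (16.9%) and 5066 lower (18.2%). The groups did not overlap at any of the 9786 called probe sets, against 16970 of all 27898 expressed (60.8%), so a lack of overlap is common here. Differences over 2-fold were found at 4418 of the probe sets higher in TTR04 and 4443 of those lower, and differences over 32-fold at 449 and 403. The median log2 difference was 2.47 among the higher and -1.98 among the lower calls, against -0.11 over all expressed probe sets.

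Many calls were close to a presence in 1 species. In all, 2409 called probe sets were expressed in TTR04 with both TQ27 arrays under the detection level, and 1895 were expressed in TQ27 with both TTR04 arrays under it. Of the 18981 probe sets expressed in both species, 1672 were higher and 2458 lower in TTR04, 21.8% in all. The detection level is a line drawn through a continuum. The dimmer TTR04 array lay within 0.1 above it at 902 probe sets and within 0.1 under it at 876, and the dimmer TQ27 array at 857 and 837. Where both arrays of a species lay under it, the text gives, after "at least", the distance of the other species' mean from the detection level, since the difference then has only a lower bound.

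**Figure D1:**
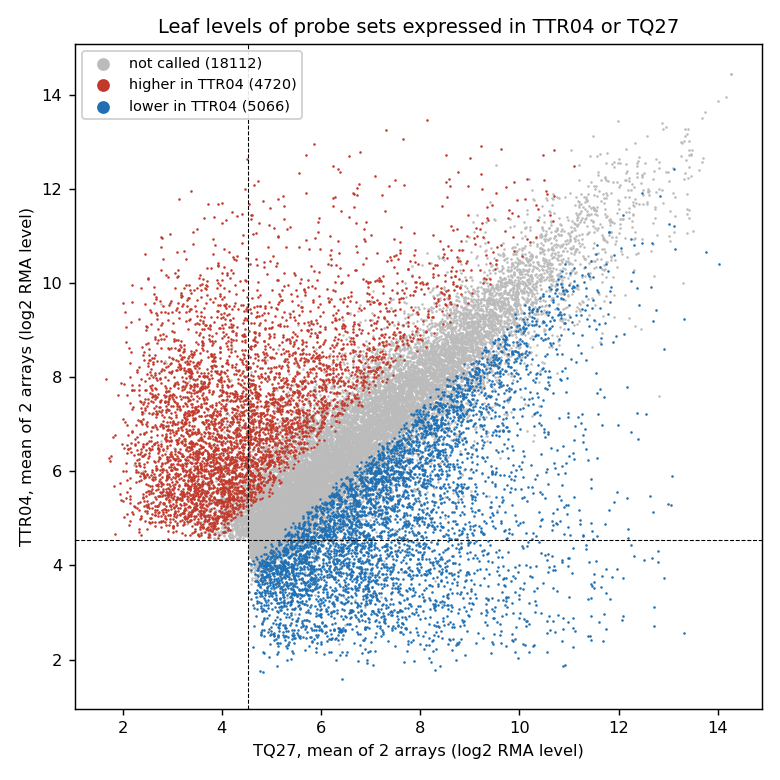
Mean log2 RMA level of TTR04 (vertical) and TQ27 (horizontal) for the 27898 probe sets expressed in either species, each point a probe set and the mean of 2 arrays; the dashed lines mark the detection level. The 4720 higher and 5066 lower calls in TTR04 form similar wings on both sides of the grey probe sets that were not called.

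The 4 arrays were not equally close to their partners. The TTR04 arrays differed from each other with an SD of 1.06 over the expressed probe sets, and the TQ27 arrays with an SD of 0.69. TTR04 replicate 1 was over 2-fold above replicate 2 at 4360 probe sets and over 2-fold below it at 3422. The difference between the arrays with a high and a low level of the BioC spike-in, a bacterial RNA added to every sample, ran across probe sets in TTR04 much as in MPV5 (r = 0.85 over 27898 probe sets, a description). In the other groups with 1 array of each kind r was 0.48 in Allo-AT9 S5, 0.38 in Allo-AT9 S4, 0.35 in MPV9 and 0.33 in TTH01, none of which holds RNA of TTR04, and 0.098 in TQ27 and -0.061 in Allo-AT5 S4. Allo-AT9 and MPV9 are the allohexaploid and the RNA mixture made with TTH01 in place of TTR04. The 18S rRNA control read 6.27 and 7.38 in TTR04 and 5.61 and 11.41 in TQ27. The 3′ probe set of the sucrose synthase control exceeded its 5′ probe set by 3.32 and 2.93 in TTR04 and by 3.08 and 4.96 in TQ27. The 5′ level of 4.27 on TQ27 replicate 2 was under the detection level. For ubiquitin the 3′ minus 5′ difference was -2.50 and -1.24 in TTR04 and -1.88 and -1.85 in TQ27. That of gapdh was highest on TQ27 replicate 1, and those of actin and ef1a on TQ27 replicate 2, so the controls did not single out 1 array. The part of these features in the calls was not tested. Leaving out any 1 array turned the direction of none of the 9786 calls, which their lack of overlap fixed in advance.

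Some leaf genes were bright in both species. The genes of photosynthesis and carbon fixation, 7 with 37 probe sets, had a summed level, counted linearly, of 62681 and 93275 on the TTR04 arrays and 92275 and 86777 on the TQ27 arrays. A large part of each sum came from the rbcl probe sets TaAffx_128414.1.A1_x_at and Ta_24976.1.S1_x_at, with means of 14.43 in TTR04 and 14.26 and 14.27 in TQ27. On each array 17 or 18 of the 37 reached the detection level, and the median level was 3.88 to 4.38. The seed storage and embryo genes, 11 with 23 probe sets, summed to 1568 and 670 in TTR04 and 745 and 1222 in TQ27, and most of that was 1 probe set of an avenin-like protein. The gliadins were at or close to background. Gli-8 had 4.58 and 4.66 in TTR04 and 3.98 and 5.15 in TQ27, and the probe sets of Gli-D2, Gli-D2-1, Gli-B2-11 and gamma-gliadin did not reach the detection level on any of the 4 arrays. This did not hold for all storage proteins. The glutenin subunit gene LMW-GS was expressed in both species at Ta_160.2.S1_x_at, with means of 6.43 in TTR04 and 6.53 in TQ27, and was not called. Its other probe sets were under the detection level on all 4 arrays.

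The genome that carries a gene in common wheat went with the direction of the call. Of the probe sets, 1273 are annotated to a single gene symbol and 809 of these were expressed and could be placed on a chromosome of the common wheat reference (IWGSC CS RefSeq v2.1). For genes placed on D chromosomes, 19 of 298 probe sets were higher in TTR04 (6.38%) and 81 lower (27.2%). For genes on A chromosomes, 62 of 301 were higher (20.6%) and 31 lower (10.3%), and for those on B chromosomes 37 of 210 were higher (17.6%) and 21 lower (10.0%). Over all expressed probe sets the shares were 16.9% and 18.2%, so the D set had fewer higher and more lower calls, and the A and B sets fewer lower calls, than the array at large. Among the calls alone, 66.7% of those on A, 63.8% of those on B and 19.0% of those on D were higher in TTR04. The counts are not of independent genes, because several probe sets can stand for 1 gene. Counted by gene, 16 of 206 genes on D had a probe set that was higher and 65 had one that was lower, against 53 and 25 of 198 genes on A and 28 and 18 of 152 genes on B.

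The pattern recurred along most chromosomes. Lower calls outnumbered higher ones on all 7 D chromosomes, most on 2D (1 higher, 17 lower), 3D (3 higher, 17 lower) and 1D (3 higher, 16 lower). Higher calls were most numerous on 5A, with 24 higher and 5 lower of 76 probe sets of 42 genes, and on 5B, with 14 higher and 2 lower of 39. On the A and B chromosomes the order was turned on 6A (4 higher, 5 lower), 7A (4 and 8), 2B (2 and 3) and 3B (2 and 4), and 6B had 2 of each. The count on 2D includes rbcl, which is encoded in the chloroplast although the reference places the annotated copy there, and without it the D set had 19 higher and 80 lower of 289. These counts are a description of the annotated genes, with no test. Leaving out each of the 4 arrays in turn, the higher share of the D calls stayed between 18.9% and 22.4%, that of the A calls between 59.7% and 70.8% and that of the B calls between 57.7% and 68.3%.

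**Figure D2:**
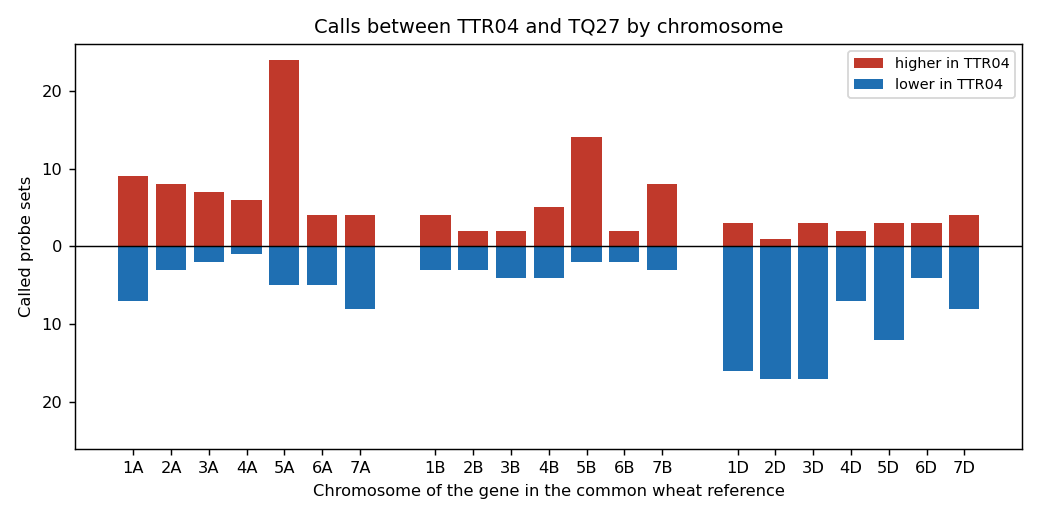
Called probe sets by the chromosome of their gene in the common wheat reference, with those higher in TTR04 drawn upwards and those lower drawn downwards. The 7 D chromosomes carry 19 higher and 81 lower calls, and the A and B chromosomes 99 higher and 52 lower.

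In some sequence clusters the members on different genomes had opposite calls. A cluster is the group of related wheat sequences from which probe sets with the same leading number were drawn, and 8 clusters held expressed probe sets on both a D chromosome and an A or B chromosome. Of the 8, 3 had a higher call on A or B and a lower one on D (Ta_274, Ta_1457 and TaAffx_39351), 2 a higher call on A or B and none on D (Ta_1282 and TaAffx_128418), 1 lower calls on both B and D (Ta_20434), 1 a lower call on B and none on D (Ta_812) and 1 no call (Ta_1082). The members of TaAffx_128418 lie on 2A, 3B and 4D and those of Ta_812 on 1D and 5B, so a shared cluster number need not mean homoeologs. The 3 with opposite calls and Ta_1282 are described here, chosen after their values had been seen. In cluster Ta_274, probe set Ta_274.1.S1_at of a gene on 5D (LOC100037524) had 3.36 and 3.21 in TTR04 and 11.19 and 11.56 in TQ27, a log2 difference of -8.09 ± 0.24 (SE, adjusted p = 3.5e-09), or at least 6.84 lower. Its partner Ta_274.2.S1_at on 5B (LOC543056) had 7.18 and 7.90 in TTR04 and 2.55 and 2.47 in TQ27, a difference of 5.03 ± 0.31 (adjusted p = 2.6e-07), at least 3.00. The species were thus on opposite sides at the 5B and the 5D member, with no overlap of the arrays at either.

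Cluster Ta_1457 had the same form on the same chromosomes. Ta_1457.2.S1_at on 5D (LOC100037538) read 5.17 and 4.32 in TTR04 and 11.77 and 11.15 in TQ27, a difference of -6.72 ± 0.33 (adjusted p = 4.5e-08). Ta_1457.1.S1_s_at on 5B (LOC542992) read 11.31 and 11.04 in TTR04 and 5.18 and 4.92 in TQ27, a difference of 6.13 ± 0.40 (adjusted p = 3.9e-07). At either probe set the arrays of the species lay far apart, with TQ27 bright on 5D and TTR04 on 5B. Another probe set of the 5B gene, Ta_1457.1.S2_at, had 4.57 and 5.01 in TTR04 and 5.42 and 5.21 in TQ27 and was not called.

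In cluster TaAffx_39351 the 2A member, TaAffx_39351.1.A1_at, had 7.89 and 9.81 in TTR04 and 5.14 and 5.32 in TQ27 (difference 3.61 ± 0.71, adjusted p = 0.0026). The 2D member, TaAffx_39351.2.A1_at, had 7.13 and 8.86 in TTR04 and 10.91 and 10.30 in TQ27 (difference -2.62 ± 0.76, adjusted p = 0.030), a call that was lost without TTR04 replicate 1 and without either TQ27 array. Cluster Ta_1282 holds LTP3, a lipid transfer protein that carries lipids through the cell wall. Its 5A member Ta_1282.2.S1_at (LOC100037539) had 12.83 and 12.41 in TTR04 and 6.54 and 2.49 in TQ27, a difference of 8.11 ± 0.86 (adjusted p = 2.0e-05), with TQ27 arrays that lay far apart. The 5B gene LTP3 was higher in TTR04 by 1.40 ± 0.39 (Ta_1282.1.S1_x_at, adjusted p = 0.023) and 2.15 ± 0.59 (Ta_1282.4.S1_at, adjusted p = 0.021). Both LTP3 calls were lost without TTR04 replicate 1, the first also without TQ27 replicate 1 and the second without TQ27 replicate 2. The 5D member Ta_1282.3.S1_x_at had 11.90 and 11.20 in TTR04 and 11.58 and 11.42 in TQ27 and was not called.

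**Figure D3:**
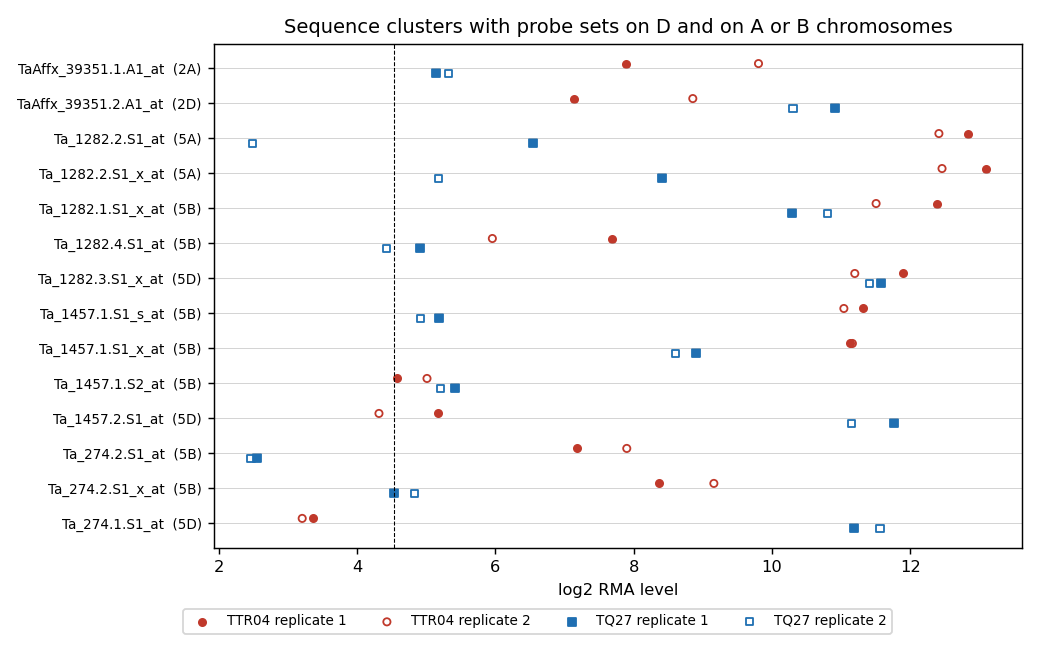
Log2 RMA level on each array (TTR04 as circles, TQ27 as squares, replicate 1 filled and replicate 2 open) of the probe sets in 4 sequence clusters, with the chromosome of the gene in brackets and the detection level as a dashed line. In Ta_274, Ta_1457 and TaAffx_39351 the D member is bright in TQ27 and an A or B member is bright in TTR04.

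Some clusters across the array held opposite calls, also where no gene is annotated, but more held calls in 1 direction only. Of 4637 clusters with at least 2 expressed probe sets, 315 held both a higher and a lower call, 488 held at least 2 higher calls and no lower one, and 501 at least 2 lower calls and no higher one. Over all expressed probe sets 16.9% were called higher and 18.2% lower, so unrelated probe sets would also be called opposite ways at times. Whether the 315 exceed that was not tested. Probe sets that match 1 transcript (suffix _at) were called at 37.7% of 18877, those that match several transcripts of a gene (_a_at) at 25.7% of 2801, those that match several related transcripts (_s_at) at 27.6% of 1813 and those with probes open to cross-hybridisation (_x_at) at 33.0% of 4407. The share called was thus largest for the probe sets with a single target.

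Of the annotated genes, 102 have a name beyond a locus number, with 200 probe sets. Of these, 105 were expressed, from 69 genes, and 13 were higher and 18 lower in TTR04, or 29.5%, against 35.1% of all expressed probe sets. Their median log2 difference was -0.18, against -0.11 for all expressed probe sets. They are described by role below, and where a role had 0 calls in 1 direction by limma, an unadjusted p under 0.05 gave 1 higher probe set for defence and inhibitor proteins, 1 lower one (DMAS1) for the cold, drought, heat and metal response and 0 for the others, apart from translation.

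Among genes of redox and detoxification, 4 of 13 expressed probe sets were higher and 2 lower in TTR04. The peroxidase gene Prx1, placed on 7A, had calls both ways. Peroxidases oxidise substrates such as phenolics with hydrogen peroxide, in the wall and in defence. Ta_6572.2.S1_at read 2.18 and 2.81 in TTR04 and 11.42 and 11.45 in TQ27, a difference of -8.93 ± 0.61 (adjusted p = 5.4e-07), at least 6.89. Ta_6572.1.S1_at read 8.05 and 10.37 in TTR04 and 3.39 and 3.74 in TQ27, a difference of 5.64 ± 0.87 (adjusted p = 0.00043), at least 4.67. The pattern was that of the paired clusters above, with each species bright at the probe set where the other was at background. The _a_at probe set of the same gene, Ta_6572.1.S1_a_at, had 7.68 and 10.05 in TTR04 and 10.61 and 10.93 in TQ27, and Ta_6572.3.S1_at had 3.65 and 5.96 in TTR04 and 5.55 and 5.56 in TQ27. Neither was called (adjusted p = 0.077 and 0.45), and both were called lower without TTR04 replicate 2, when the role had 3 higher and 5 lower calls. Ta_6572.1.S1_a_at was also called lower with a replicate block and with a spike-in block.

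GSTZ1 on 5B, a zeta-class glutathione transferase that takes part in tyrosine breakdown, also differed between probe sets, but had no lower call. TaAffx_56524.1.S1_at had 10.02 and 9.21 in TTR04 and 2.48 and 3.03 in TQ27, a difference of 6.86 ± 0.35 (adjusted p = 5.1e-08), at least 5.08. Ta_237.1.S1_at was also higher, with 9.44 and 8.51 in TTR04 and 4.23 and 4.20 in TQ27 (difference 4.76 ± 0.46, adjusted p = 9.1e-06, at least 4.43). The _a_at probe set Ta_237.1.S1_a_at had 10.96 and 9.59 in TTR04 and 9.67 and 10.65 in TQ27, overlapping and not called. Transcript of the family was thus read at a similar level in both species by 1 of the 3 probe sets. Lactoylglutathione lyase (lgul, on 5A), which clears the toxic by-product methylglyoxal, had 5.92 and 8.82 in TTR04 and 3.89 and 3.26 in TQ27 at Ta_8554.1.S1_at, a difference of 3.80 ± 0.96 (adjusted p = 0.014) or at least 2.83, that was lost without TTR04 replicate 2 or TQ27 replicate 2. Its other expressed probe set, Ta_28068.1.S1_at, lay the other way, with 2.73 and 4.23 in TTR04 and 5.03 and 5.31 in TQ27 (difference -1.69 ± 0.59, adjusted p = 0.066, at least 0.63 lower). It was not called, but was called lower with a replicate block, with a spike-in block and without TTR04 replicate 2. PER1, another peroxidase, had 4.01 and 3.91 in TTR04 and 6.48 and 6.12 in TQ27 (difference -2.34 ± 0.26, adjusted p = 3.1e-05, at least 1.76 lower).

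Catalase and phytochelatin synthase were not called. CAT1, which breaks down hydrogen peroxide in peroxisomes, had 11.33 and 12.25 in TTR04 and 12.38 and 12.30 in TQ27 at Ta_442.1.S1_at, and PCS1 had 7.73 and 5.87 in TTR04 and 6.71 and 8.12 in TQ27, with overlapping arrays.

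Of 16 genes for defence and inhibitor proteins, 5 were expressed, with 6 probe sets, of which 3 were lower in TTR04 and 0 higher. The lower ones were both probe sets of xip, a xylanase inhibitor that blocks wall-degrading enzymes of microbes, and that of PR5, a pathogenesis-related protein of the thaumatin family. The xip probe set Ta_1200.1.S1_x_at, on 4D, had 3.65 and 4.28 in TTR04 and 10.42 and 10.76 in TQ27, a difference of -6.62 ± 0.41 (adjusted p = 2.5e-07), at least 6.05. Ta_1200.1.S1_at had 5.14 and 5.25 in TTR04 and 10.60 and 10.94 in TQ27 (difference -5.57 ± 0.37, adjusted p = 4.0e-07). The other tetraploid read high at xip, with a mean of 10.53 in TTH01 at Ta_1200.1.S1_x_at, so the low level was not shared by the tetraploids. PR5, on 7D, had 5.30 and 5.51 in TTR04 and 7.45 and 9.70 in TQ27 (difference -3.17 ± 0.66, adjusted p = 0.0040), a call lost in a separate fit of the 4 arrays. The remaining defence genes with a measured level were not called. WMAI-1, an inhibitor of alpha-amylase, had 5.20 and 5.19 in TTR04 and 5.22 and 5.14 in TQ27. TaGlu1a, a beta-glucosidase that releases benzoxazinoid toxins, had 5.43 and 8.66 in TTR04 and 4.07 and 3.90 in TQ27 (adjusted p = 0.12). Both TTR04 arrays were above both TQ27 arrays at TaGlu1a, but far apart, and the gene was called without TTR04 replicate 1. The serpins, thionins and the purothionin were under the detection level on all 4 arrays.

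For hormone, methyl and small-molecule synthesis, 4 of 10 expressed probe sets were lower in TTR04 and 0 higher. The gibberellin 20-oxidases, which make the precursors of active gibberellin, are annotated by genome. GA20ox1D, on 5D, had 4.28 and 4.45 in TTR04 and 6.32 and 7.34 in TQ27 at Ta_141.1.S1_x_at (difference -2.47 ± 0.53, adjusted p = 0.0050), at least 2.29. Its other probe set, Ta_141.1.S1_at, differed by -1.99 ± 0.59 (adjusted p = 0.032). The first call was lost without TQ27 replicate 2 and the second also without either TTR04 array. The probe sets of the A and B copies were close to background in both species. GA20ox1A had 3.66 and 4.56 in TTR04 and 4.02 and 3.48 in TQ27, and GA20ox1B had 3.49 and 4.35 in TTR04 and 3.88 and 3.64 in TQ27, so the tetraploid was not bright at the probe sets of its own copies.

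PIMT on 2D, a methyltransferase that repairs aged proteins, had 5.18 and 4.26 in TTR04 and 7.96 and 8.57 in TQ27, a difference of -3.55 ± 0.37 (adjusted p = 1.9e-05). APT1 on 5B, which salvages adenine, had 10.63 and 10.31 in TTR04 and 11.17 and 11.74 in TQ27 (difference -0.99 ± 0.21, adjusted p = 0.0046, lost without TQ27 replicate 2). AdSS, an enzyme of purine synthesis, had 8.99 and 8.55 in TTR04 and 8.91 and 8.96 in TQ27 and was not called. PEAMT1, the methyltransferase of choline synthesis, had 7.87 and 12.42 in TTR04 and 12.46 and 12.97 in TQ27, so that TTR04 replicate 2 lay close to TQ27 and replicate 1 did not (adjusted p = 0.18, called without TTR04 replicate 2). Without TQ27 replicate 2 the role had 1 lower call, PIMT.

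Among histones and nuclear proteins, 4 of 7 expressed probe sets were higher in TTR04 and 0 lower, with a median log2 difference of 1.49. The zinc finger gene WZF1, on 5B, had 8.27 and 8.87 in TTR04 and 3.59 and 2.70 in TQ27, a difference of 5.43 ± 1.37 (adjusted p = 0.014), at least 4.03. Its SE was large beside the close pairs of both species because the fit pools the spread of all 9 groups, and the call was lost without TTR04 replicate 2 or TQ27 replicate 2. The TATA-binding protein gene TBP1, which helps to start transcription, had 8.43 and 7.81 in TTR04 and 6.16 and 7.08 in TQ27 (difference 1.50 ± 0.30, adjusted p = 0.0032). The histone gene H2A-3 had 6.04 and 5.46 in TTR04 and 3.96 and 4.55 in TQ27 at Ta_27192.1.S1_s_at (difference 1.49 ± 0.27, adjusted p = 0.0015). Its other probe set, Ta_27192.1.S1_at, lay the other way under the detection level, with 2.62 and 2.50 in TTR04 and 3.42 and 4.17 in TQ27. The high mobility group gene Hmgb3 was higher at Ta_30768.3.S1_x_at, with 9.52 and 10.33 in TTR04 and 8.24 and 7.59 in TQ27 (difference 2.01 ± 0.44, adjusted p = 0.0053), a call that was lost without TQ27 replicate 2. Its other probe set, Ta_30768.1.S1_x_at, had 9.86 and 11.03 in TTR04 and 10.95 and 10.95 in TQ27 and was not called. H2B-6 had a difference of 0.02 ± 0.38 at Ta_27708.1.S1_x_at and of -0.39 ± 0.46 at Ta_27708.1.S1_at, with 4.48 and 6.19 in TTR04 and 5.99 and 5.46 in TQ27, and neither was called. Of the 22 probe sets in this role, 15 were not expressed in either species. Without TQ27 replicate 2 the role had 2 higher calls, TBP1 and H2A-3, without TTR04 replicate 2 it had 3 higher and 1 lower (H2B-6 at Ta_27708.1.S1_at), and in a separate fit of the 4 arrays 1 higher call was left, WZF1.

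The cytoskeleton genes were mostly read at high levels, with 1 probe set higher and 2 lower in TTR04 of 11 expressed. All 3 calls belong to the beta-tubulin tubb5 on 1A, again in opposite directions. Ta_214.1.S1_at had 6.32 and 7.90 in TTR04 and 5.43 and 4.78 in TQ27 (difference 2.00 ± 0.58, adjusted p = 0.030). Ta_214.2.A1_at had 4.31 and 4.28 in TTR04 and 9.09 and 7.40 in TQ27 (difference -3.95 ± 0.63, adjusted p = 0.00062), at least 3.70. Ta_214.2.A1_x_at differed by -2.85 ± 0.71 (adjusted p = 0.013), a call lost without TTR04 replicate 1 or TQ27 replicate 1. The remaining probe set, Ta_214.1.S1_x_at, had 6.39 and 7.86 in TTR04 and 5.88 and 5.29 in TQ27 and was not called (adjusted p = 0.11), but was called higher with a replicate block, with a spike-in block and without TTR04 replicate 1. The higher call was lost without TTR04 replicate 2 or TQ27 replicate 2. The other beta-tubulins, tubb1 to tubb4, were not called. Their differences were 0.01 ± 0.98, -1.23 ± 0.91, 0.90 ± 0.57 and -0.21 ± 0.35, and tubb3 was called higher with a spike-in block. Profilin, which binds actin, was not called either, with 12.16 and 12.21 in TTR04 and 12.22 and 12.08 in TQ27 at Ta_5057.3.A1_at.

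In the role of membrane, wall and protein turnover, 3 of 11 expressed probe sets were higher and 1 lower in TTR04. Besides LTP3, the vacuolar calcium channel TPC1 on 3B was higher, with 8.87 and 8.89 in TTR04 and 7.63 and 7.57 in TQ27 (difference 1.28 ± 0.17, adjusted p = 0.00017). The ubiquitin-conjugating enzyme UBC1, which passes ubiquitin to proteins bound for breakdown, was lower at TaAffx_53697.1.S1_x_at, with 4.08 and 5.10 in TTR04 and 5.45 and 7.68 in TQ27 (difference -1.97 ± 0.57, adjusted p = 0.028), lost without TTR04 replicate 1 or TQ27 replicate 2. At its bright probe set Ta_2711.1.S1_x_at it had 12.18 and 11.04 in TTR04 and 11.28 and 11.71 in TQ27 and was not called. The proton pump ha1, which energises the plasma membrane, had 11.50 and 11.22 in TTR04 and 11.37 and 11.29 in TQ27 at TaAffx_55278.1.S1_x_at. All 3 probe sets of ha1 differed by under 0.2.

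**Figure D4:**
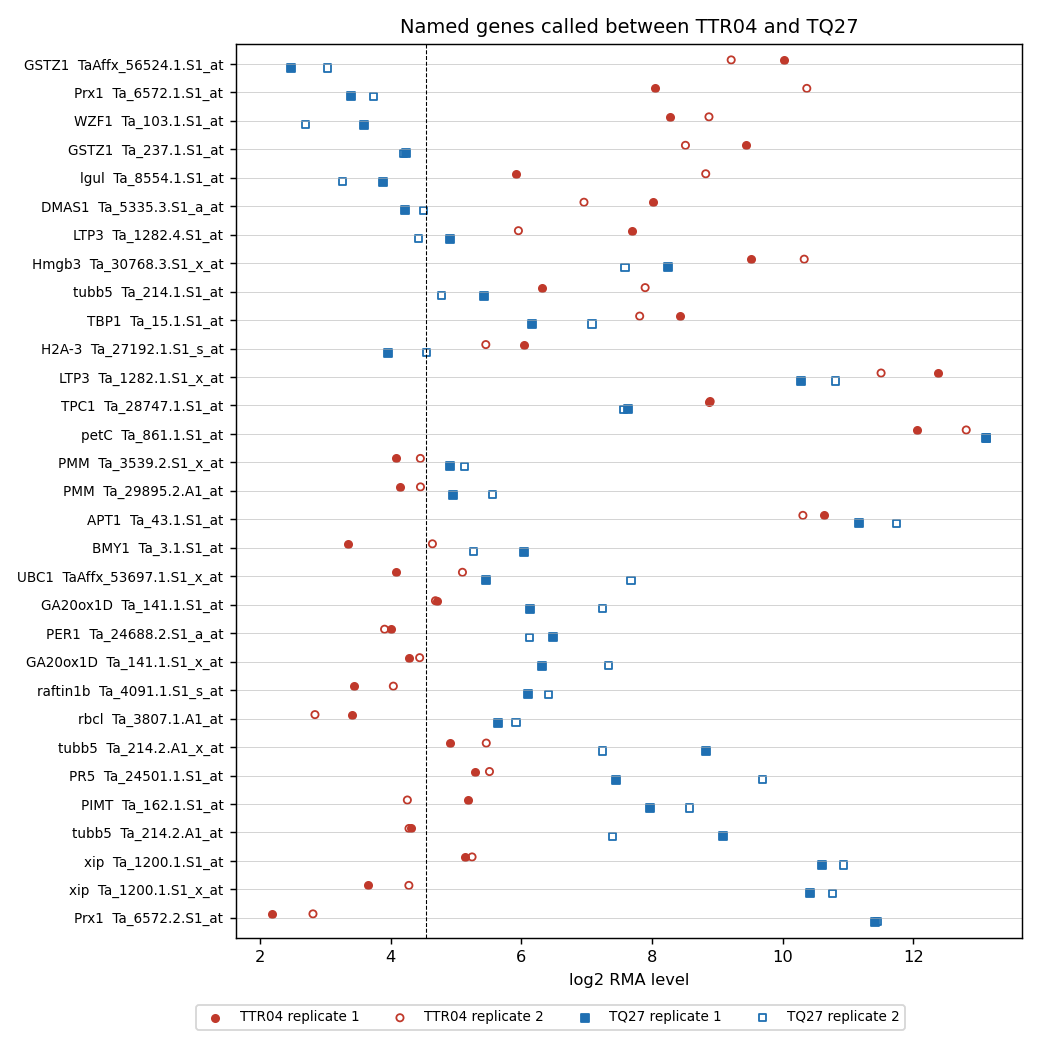
Log2 RMA level on each array (TTR04 as circles, TQ27 as squares, replicate 1 filled and replicate 2 open) of the 31 called probe sets of named genes, ordered by log2 difference, with the detection level as a dashed line. The 13 at the top are higher in TTR04, led by GSTZ1, and the 18 below are lower, ending with xip and Prx1.

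Of 17 expressed probe sets of photosynthesis and carbon fixation, 2 were lower in TTR04 and 0 higher. The call for petC, whose Rieske protein carries electrons between the photosystems, rested on 12.05 and 12.81 in TTR04 and 13.11 and 13.12 in TQ27 (difference -0.69 ± 0.21, adjusted p = 0.039), and was lost without TTR04 replicate 1 and without either TQ27 array. The other was a dim probe set of rbcl, the large subunit of the carbon-fixing enzyme Rubisco, with 3.41 and 2.84 in TTR04 and 5.65 and 5.92 in TQ27 (Ta_3807.1.A1_at, difference -2.66 ± 0.34, adjusted p = 9.9e-05, at least 1.24). The bright rbcl probe set Ta_24976.1.S1_x_at had 14.42 and 14.45 in TTR04 and 14.41 and 14.13 in TQ27, near the top of the range of the arrays, and was not called.

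The low values in this role lay mostly on 1 array. OEE1, a protein of the water-splitting complex, had 11.94 and 13.30 in TTR04 and 13.29 and 13.44 in TQ27. Phosphoribulokinase (PRK), which makes the carbon dioxide acceptor of the Calvin cycle, had 11.43 and 12.90 in TTR04 and 13.00 and 13.04 in TQ27. Fructose bisphosphatase (FBP) had 7.70 and 10.44 in TTR04 and 10.58 and 11.06 in TQ27 at Ta_439.1.S1_at. In each, TTR04 replicate 2 was close to TQ27 and replicate 1 lay below all other arrays. TTR04 replicate 1 was below replicate 2 at 15 of the 17 probe sets, by a median of 1.33, against a median of 0.05 above it over all expressed probe sets. Without TTR04 replicate 2 the role had 7 lower calls, among them OEE1, PRK and FBP, and without TTR04 replicate 1 or TQ27 replicate 2 it had 1, rbcl. Without TQ27 replicate 1 it had 1 lower call, rbcl, and 1 higher, FBP at TaAffx_106041.1.S1_at. FBP at Ta_439.1.S1_at was also called lower with a replicate block.

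Sugar and starch metabolism had 3 lower and 0 higher calls among 9 expressed probe sets. Beta-amylase (BMY1, on 2D), which releases maltose from starch, had 3.35 and 4.64 in TTR04 and 6.04 and 5.27 in TQ27 (difference -1.66 ± 0.44, adjusted p = 0.018), lost without TTR04 replicate 1 or TQ27 replicate 1. The 2 probe sets of phosphomannomutase (PMM) differed by -0.96 ± 0.24 (Ta_29895.2.A1_at, adjusted p = 0.012), at least 0.72 lower, and by -0.75 ± 0.19 (Ta_3539.2.S1_x_at, adjusted p = 0.015), at least 0.48 lower. Both lay close to the detection level on all arrays, and both calls were lost without TTR04 replicate 1 or TQ27 replicate 2. The low first array of TTR04 was seen here too. Phosphoglycerate kinase (Pgk-1) had 10.19 and 12.37 in TTR04 and 12.67 and 12.72 in TQ27, and the glyceraldehyde phosphate dehydrogenase GAPN had 6.67 and 9.59 in TTR04 and 10.30 and 10.55 in TQ27 (adjusted p = 0.13 and 0.058). The small subunit of ADP-glucose pyrophosphorylase (AGP-S), which makes the substrate of starch synthesis, had 9.60 and 9.15 in TTR04 and 9.15 and 9.64 in TQ27. The role had 6 lower calls without TTR04 replicate 2, among them Pgk-1 and GAPN, 0 without TTR04 replicate 1 and 1, BMY1, without TQ27 replicate 2. All 3 lower calls were lost in a separate fit of the 4 arrays and at a detection level of 6, while GAPN was called lower with a replicate block, a spike-in block or median centring.

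**Figure D5:**
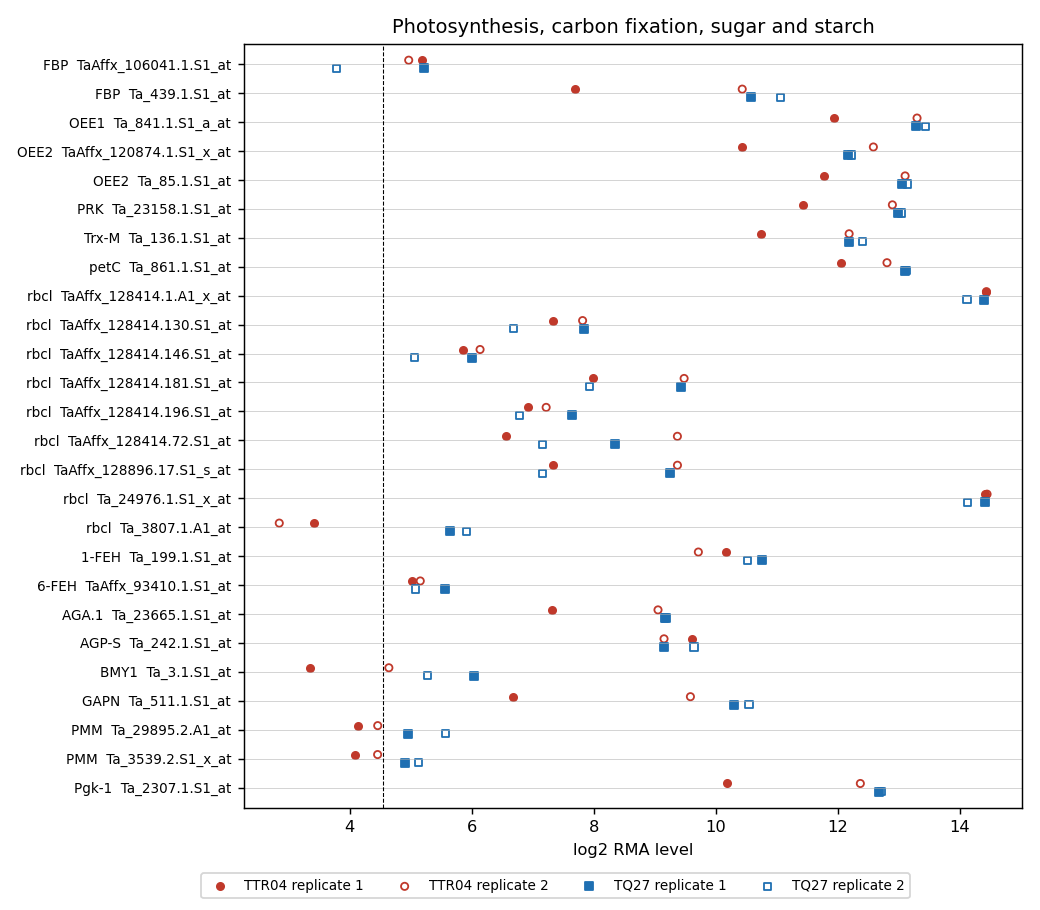
Log2 RMA level on each array (TTR04 as circles, TQ27 as squares, replicate 1 filled and replicate 2 open) of the expressed probe sets of photosynthesis and carbon fixation and of sugar and starch metabolism, with the detection level as a dashed line. At OEE1, OEE2, PRK, Trx-M, GAPN, Pgk-1 and the brighter probe set of FBP (Ta_439.1.S1_at) the filled circle of TTR04 replicate 1 lies to the left of the other arrays.

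Translation had no call by limma, 0 of 8 expressed probe sets, while 1 was higher and 2 lower at an unadjusted p under 0.05. The smallest adjusted p was that of eIF4E, the cap-binding initiation factor, with 9.43 and 7.88 in TTR04 and 9.57 and 10.36 in TQ27 (adjusted p = 0.069), and 3 genes, eIF4B, RPL9 and TEF1 at Ta_659.3.S1_x_at, differed by 0.22 ± 0.34, 0.08 ± 0.64 and 0.37 ± 0.24. Here too the TTR04 arrays differed, with 2 lower calls without replicate 1, eIF4E and the cap-binding protein gene NCBP, and 2 higher calls without replicate 2, eIF-2-beta and TEF1 at Ta_659.2.S1_x_at. Without TQ27 replicate 1, NCBP was called lower. The seed storage list had 0 of 3 called by limma and 0 at an unadjusted p under 0.05, and the 6 probe sets of other named genes likewise. The avenin-like protein avnlb was bright at Ta_27777.1.S1_at, with 10.39 and 8.52 in TTR04 and 8.98 and 9.86 in TQ27. Of the anther proteins raftin1a and raftin1b, 1 probe set of 4 was expressed. It belongs to raftin1b, which is needed for pollen, and had 3.44 and 4.04 in TTR04 and 6.10 and 6.42 in TQ27 (difference -2.52 ± 0.31, adjusted p = 6.5e-05), at least 1.72 lower. Of the stress genes, DMAS1 on 4B, which makes the iron chelator deoxymugineic acid, was higher in TTR04 at 1 of 3 expressed probe sets. Ta_5335.3.S1_a_at had 8.02 and 6.96 in TTR04 and 4.22 and 4.50 in TQ27 (difference 3.12 ± 0.34, adjusted p = 2.9e-05, at least 2.95), while Ta_5335.1.A1_at had 5.62 and 5.87 in TTR04 and 5.68 and 6.08 in TQ27. Its remaining expressed probe set, Ta_5335.1.A1_x_at, had 5.12 and 5.90 in TTR04 and 6.19 and 6.25 in TQ27 (difference -0.71 ± 0.24, adjusted p = 0.056), and was called lower with a spike-in block, after median centring and without TTR04 replicate 2. The dehydrins and the small heat shock protein were under the detection level on all 4 arrays.

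The most extreme calls belong to probe sets with no gene symbol. Ta_13207.1.S1_x_at had 2.49 and 2.65 in TTR04 and 13.25 and 13.39 in TQ27, a difference of -10.75 ± 0.40 (adjusted p = 9.9e-09), at least 8.78, or 439-fold. Ta_23362.2.S1_at had 2.89 and 2.55 in TTR04 and 12.66 and 12.76 in TQ27 (difference -9.99 ± 0.51, adjusted p = 5.3e-08, at least 8.17). In the other direction, Ta_659.5.S1_at had 12.68 and 10.90 in TTR04 and 4.15 and 2.13 in TQ27 (difference 8.65 ± 0.74, adjusted p = 3.6e-06), at least 7.25. It shares its cluster number with the elongation factor TEF1, whose own probe sets were not called. Ta_14995.2.S1_a_at had 13.08 and 10.81 in TTR04 and 4.07 and 2.70 in TQ27 (difference 8.56 ± 0.85, adjusted p = 1.3e-05), at least 7.40. The related Ta_14995.2.S1_x_at, listed in the study as a xyloglucan transferase, an enzyme that remodels the cell wall, had 12.25 and 10.14 in TTR04 and 5.07 and 5.69 in TQ27 (difference 5.82 ± 0.77, adjusted p = 0.00013).

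Further probe sets have a function only in the study's own lists, which cover parental dominance, lasting non-additive expression and quantitative PCR. These lists were chosen on the same arrays, so that their calls are not independent evidence of a parental difference. Probe sets for mitochondrial matR and nad1 (TaAffx_57297.1.S1_at) and for an NADH dehydrogenase (TaAffx_87200.1.S1_at) were lower in TTR04. The first had 4.19 and 3.44 in TTR04 and 10.21 and 7.15 in TQ27 (difference -4.86 ± 0.93, adjusted p = 0.0022), at least 4.14, and the second had 3.63 and 4.03 in TTR04 and 8.66 and 7.62 in TQ27 (difference -4.31 ± 0.86, adjusted p = 0.0030), at least 3.60. The first call was lost in a separate fit of the 4 arrays. A probe set for an RNA-directed DNA polymerase, Ta_24245.1.A1_at, had 4.32 and 3.86 in TTR04 and 10.88 and 7.84 in TQ27 (difference -5.27 ± 0.90, adjusted p = 0.0010, at least 4.82 lower). At these 3, Allo-AT5 S4 read 3.93, 2.91 and 4.16, on the side of its seed parent TTR04, while the mixture MPV5 read 8.33, 7.31 and 9.39. They come from lists of probe sets where the allohexaploids matched 1 parent or departed from the mixture on these same arrays. The contrast of Allo-AT5 with MPV5 was thus built into the choice and is no evidence of its own.

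Lower in TTR04 as well were hydroxymethylglutaryl-CoA synthase of the isoprenoid pathway, with 5.08 and 4.92 in TTR04 and 7.70 and 8.11 in TQ27 (Ta_2925.1.S1_x_at, difference -2.91 ± 0.30, adjusted p = 1.8e-05), and a COPII vesicle coat protein, with 3.49 and 2.91 in TTR04 and 6.29 and 5.72 in TQ27 (Ta_16233.1.S1_at, difference -2.80 ± 0.48, adjusted p = 0.00097, at least 1.47 lower). Both probe sets of an L-ascorbate peroxidase were lower, with 8.06 and 10.37 in TTR04 and 11.30 and 11.70 in TQ27 at Ta_11386.2.S1_a_at (difference -2.28 ± 0.59, adjusted p = 0.016), but these calls were lost without TTR04 replicate 1 or TQ27 replicate 2. A phospholipase D, which cuts membrane lipids, was higher, with 6.43 and 5.61 in TTR04 and 2.66 and 3.10 in TQ27 (TaAffx_42890.1.A1_at, difference 3.14 ± 0.49, adjusted p = 0.00047, at least 1.48). Of the 9 probe sets taken up for quantitative PCR, 2 were higher and 3 lower. TaAffx_128796.1.S1_at was the most distant, with 2.46 and 2.32 in TTR04 and 11.11 and 10.61 in TQ27 (difference -8.47 ± 0.24, adjusted p = 2.3e-09, at least 6.32). The peroxidase Ta_5385.1.S1_at was higher by 1.63 ± 0.50 (adjusted p = 0.036), lost without either TTR04 array and without TQ27 replicate 2. Ta_10807.1.A1_at was lower, with 6.54 and 2.65 in TTR04 and 8.30 and 7.83 in TQ27 (difference -3.47 ± 0.89, adjusted p = 0.015), lost without TTR04 replicate 2 and without either TQ27 array, and Ta_21601.1.A1_at was higher, with 6.31 and 6.24 in TTR04 and 3.29 and 2.23 in TQ27 (difference 3.52 ± 0.36, adjusted p = 1.4e-05, at least 1.74).

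The mixture of both RNAs gave a further reading of the same parental samples. The MPV5 mean lay between the parental means at 4693 of the 4720 probe sets higher in TTR04 (99.4%) and at 4893 of the 5066 lower (96.6%), against 53.9% of the expressed probe sets that were not called. These levels share RNA with the parents and are no independent replicate of them. Called probe sets were selected for a wide gap between the parents, with a median absolute log2 difference of 2.22 against 0.74 over all expressed. A mean between the parents is therefore more likely at them by selection. Measured against the weighted mean of the parents on the linear scale, MPV5 was lower by a median log2 difference of -0.19 at the higher and -0.14 at the lower calls, and by -0.11 at probe sets not called. Of the probe sets expressed in TTR04 and not TQ27 and called, 76.4% reached the detection level on both MPV5 arrays, and of those expressed in TQ27 and not TTR04, 50.2%. Named genes followed the same order. MPV5 read 9.02 at the GSTZ1 probe set TaAffx_56524.1.S1_at, where TTR04 and TQ27 had means of 9.62 and 2.76, and 9.73 at the Prx1 probe set Ta_6572.2.S1_at, where they had 2.50 and 11.43.

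In the allohexaploid Allo-AT5, which carries both sets of genomes, most called probe sets also lay between the parents. This held for 87.8% of the higher and 95.1% of the lower calls in S4 and for 88.7% and 94.5% in S5, against 48.2% and 46.2% of the probe sets not called. Called probe sets were again favoured by their wide gap between the parents. The opposite Prx1 probe sets were both bright, with 9.09 in S4 and 9.67 in S5 at Ta_6572.2.S1_at, the TQ27 side, and 9.03 and 9.62 at Ta_6572.1.S1_at, the TTR04 side. At WZF1 the levels of 8.87 and 9.31 were near or above the TTR04 mean of 8.57, and at xip (Ta_1200.1.S1_x_at) those of 10.23 and 9.70 were near the TQ27 mean of 10.59. Of probe sets called and expressed in TTR04 alone, 79.4% were expressed in S4 and 86.7% in S5, and of those called and expressed in TQ27 alone, 45.4% and 50.2%. In the mixture MPV5 the shares were 76.4% and 50.2%. Both sets were defined by detection in 1 parent. Called or not, those of TQ27 alone were dimmer there (median 5.89) than those of TTR04 alone in TTR04 (6.24). The shares therefore do not measure transcript kept or lost in Allo-AT5.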

How the data were processed

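RNA of second leaves was hybridised to Affymetrix Wheat Genome arrays, 2 for each of 9 groups, from pools of 10 plants. The authors normalised the scanned arrays by robust multichip averaging in R and deposited log2 levels, which were used unchanged; versions of their tools are not given in the sources used here, and their MAS5 detection flags were not used. The detection level, a log2 level of 4.54 on both arrays, stands in for those flags and was set in earlier work on these data so that the number of expressed probe sets came to that of the study. Array number limits the precision, and p-values rest on the spread between paired arrays, pooled over the 9 groups. MPV5 and MPV9 are mixtures of parental RNA and not further pools of plants, and the MPV5 arrays deviated much as those of TTR04 (r = 0.85). The residuals are therefore not independent, and the 9 residual degrees of freedom are likely too many.

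TTR04 and TQ27 were compared with limma 3.58.1 in R 4.3.3, in 1 linear model of all 18 arrays with a term for each of the 9 groups and nothing else, and the variances were moderated by empirical Bayes (9 residual degrees of freedom, 2.99 prior). Benjamini-Hochberg adjustment ran over 61115 probe sets. The median SE of a log2 difference was 0.35. In simulated data with the spread of these arrays, 100 probe sets were changed 2-fold and 100 were changed 4-fold. Of these, 3 and 38 were called, with 1 false call among the rest of 61115. Far fewer probe sets were changed there than were called between the species, which makes the adjustment stricter. The shares therefore do not give the sensitivity of this comparison.

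Probe sets were named through an annotation table of the array that dates from before the reference (1273 probe sets with 1 symbol, 1272 of them matched to the reference; 59842 tested probe sets have no symbol here). The reference gives symbols and no descriptions, so genes with a symbol or synonym beyond a locus number were grouped by role from those symbols. By rule, the text names called probe sets of such genes with non-overlapping arrays, the 15 largest and 15 smallest differences, up to 3 called each way and 2 not called per role, genes with calls in both directions, the 4 most extreme probe sets without a symbol, the probe sets of quantitative PCR and up to 8 with a function in the study's lists; 12 members of the clusters and further expressed probe sets of the same named genes were added outside it, after their values had been seen. The comparison, the roles and the lists were chosen with earlier results of these data known. Probe set names carry _ in place of their first dot. Alternatives were a replicate block, the spike-in band as a block, a separate fit of the 4 arrays, cyclic loess, median centring, no filter, a detection level of 6, a trended robust prior, unadjusted p and leaving out each array, with the detection state kept from both arrays. Tables were made with pandas 2.3.3.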

Additional observations from a re-analysis of the deposited data

How the results depend on the processing

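The number of probe sets called between TTR04 and TQ27 moved by over 1.5 times under 1 of the alternatives, the separate fit of the 4 arrays, which has fewer residual degrees of freedom. It called 5556, of which 2895 were higher and 2661 lower in TTR04, and 5489 of them were among the 9786. Leaving out each array in turn gave 7142 to 10554 calls, 3624 to 5173 higher and 3518 to 5381 lower, with 2040 to 2288 called in TTR04 and not TQ27 and 1624 to 1788 in TQ27 and not TTR04. The balance of directions was near even and not stable: 48.2% of calls were higher in TTR04, against 52.9% after cyclic loess, 52.1% in the separate fit, 50.7% without TQ27 replicate 2 and 46.1% with a detection level of 6, and no shared call turned direction under any alternative. The replicate deviations of TTR04 and TQ27 had r = -0.098, and those of 18 of 36 pairs of groups had r over 0.1 (range -0.32 to 0.85), so the numbers were not taken to pair the samples; a replicate block gave 10799 calls (5188 higher, 5611 lower); a block for the spike-in band gave 11617. Of the 58 called probe sets named, 22 lost the call in the separate fit, 2 after cyclic loess, 10 at a detection level of 6, 1 with a trended robust prior, 0 with a replicate block and 6 to 17 without 1 array. Of the 138 named in all, 18 gained a call without TTR04 replicate 2 and 5 with a replicate block. No named call changed sign under any alternative. That was fixed in advance in the fits without 1 array and within each spike-in band, because no called probe set had overlapping groups. Without a filter, the numbers expressed in 1 species alone are not defined and were not run. Depth here means signal over background: a difference at a probe set with both arrays of a species under the detection level has a lower bound only.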
